A study of Rattus norvegicus with 4 samples.

Results

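The Notch receptors, ligand and targets described here were 10 genes, chosen by symbol out of 32883 in the deposited matrix: the receptors Notch1, Notch2 and Notch3, the ligand Jag1, the feedback inhibitor Nrarp, and the transcription factors Hes1, Hes5, Hes6, Hey1 and Hey2. Each symbol matched 1 gene identifier, from ENSRNOG00000019322 for Notch1 to ENSRNOG00000009354 for Nrarp. Messenger RNA was counted cell by cell with a droplet 3′ kit in pituitary glands of randomly cycling female Sprague Dawley rats aged 75 days, and the labels name no treatment or genetic change for any group. Glands of 30 rats were dissected into an anterior and a posterior lobe library, and 30 other glands were dispersed whole as 1 suspension that was run on 2 lanes. Glands were pooled before loading, so the replicates were the 2 preparations, dissected and whole (n = 2), and no value belongs to 1 animal.

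Notch receptors are cut when a ligand on a neighbouring cell binds them, and the freed intracellular part joins the DNA-binding protein RBPJ to switch on target genes. Hes1, Hes5, Hey1 and Hey2 encode repressors that are classical targets, and Nrarp is a target that dampens the signal. Hes6 belongs to the same family but is known in the mouse to antagonize Hes1 and to promote neuronal differentiation. In the pituitary the pathway is known for its role in progenitor cells, and folliculostellate cells, which make no hormone, carry S100b and lie between the endocrine cells of the anterior lobe, have been studied as a place where such cells reside. In arteries and their mural cells (pericytes and smooth muscle), Notch3, Notch1 and Jag1 are well known players.

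The 4 libraries held between 61981865 and 72754998 unique molecular identifiers (UMIs) in 7424 to 8550 barcodes each. After filtering, 19777 cells remained in 25 clusters, of which 24 were named into 14 classes from markers, with the Notch genes themselves left out of the clustering. Class names carry the ending "-like", since the labels name no cell type, and a cluster of 197 cells led by cell cycle genes stayed unnamed. Folliculostellate-like (FS-like) cells numbered 2863 in 2 clusters, with 894.4 CPM of S100b, where CPM is the UMI count of a gene scaled to 1000000 UMIs summed over a class. The 5 hormone classes, gonadotroph-, corticotroph-, thyrotroph-, lactotroph- and somatotroph-like cells, held 1.48 to 4.35 CPM of S100b. Among the kept cells 33 barcode sequences occurred in more than 1 library. FS-like cells also carried 30977 CPM of the lactotroph hormone Prl, and the part of free RNA in the class sums was not tested. As each molecule gives 1 tag near its 3′ end, levels are compared between classes for 1 gene and not between genes.

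FS-like cells held RNA of all 3 receptors, of Jag1 and of every target, and 9 of the 10 genes were higher there than in hormone cells. Called genes had a Benjamini-Hochberg adjusted p under 0.05 in edgeR's quasi-likelihood test and a log2 fold change of at least 1 in size. Over all 14618 genes tested, 22.9% were called higher and 11.6% lower in this comparison. Hes6 was the 1 member called lower. The members' median log2 fold change was 6.99, or 6.93 with bounds for the genes that had 0 UMIs in a hormone class, against 0.09 for all genes tested. A bulk-like sum cannot tell more RNA per cell from more cells that hold it, and the shares of cells below bear on this.

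**Figure D1:**
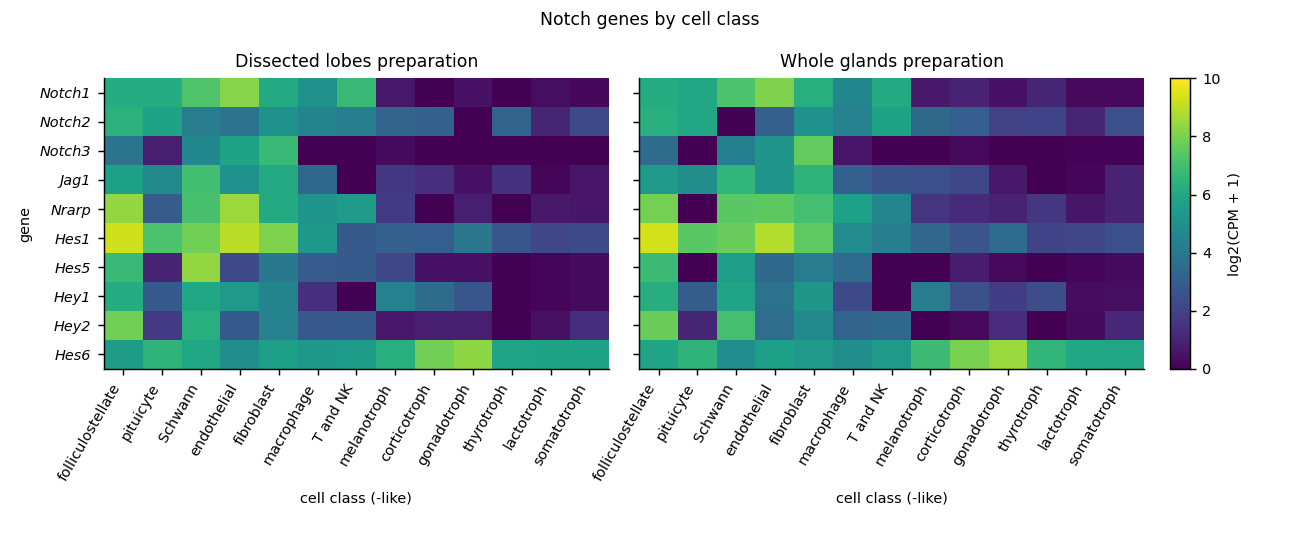
Level of each of the 10 Notch genes as log2(CPM + 1), in colour, in 13 cell classes of the dissected (left) and whole-gland (right) preparations. FS-like cells are the first column of each panel, where Hes1 is brightest, and in the row of Hes6 the brightest fields are those of gonadotroph- and corticotroph-like cells in both preparations.

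The bases before the start sites of Hes1, Hes5 and Hey2 are shown because each holds the sequence that RBPJ is known to bind. The windows cover the 250 bases before the gene start in RefSeq (GRCr8), at chr11:84213046-84213295 on the minus strand for Hes1, chr5:170804327-170804576 on the plus strand for Hes5 and chr1:28640850-28641099 on the plus strand for Hey2. Capitals mark TGGGAA, or GTGGGAA where the longer core is present, on either strand.
Hes1: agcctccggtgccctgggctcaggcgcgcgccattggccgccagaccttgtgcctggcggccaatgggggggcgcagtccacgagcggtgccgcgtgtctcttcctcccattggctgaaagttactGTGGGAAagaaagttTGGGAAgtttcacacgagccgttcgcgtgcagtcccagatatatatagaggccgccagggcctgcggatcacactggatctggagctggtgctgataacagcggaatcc
Hes5: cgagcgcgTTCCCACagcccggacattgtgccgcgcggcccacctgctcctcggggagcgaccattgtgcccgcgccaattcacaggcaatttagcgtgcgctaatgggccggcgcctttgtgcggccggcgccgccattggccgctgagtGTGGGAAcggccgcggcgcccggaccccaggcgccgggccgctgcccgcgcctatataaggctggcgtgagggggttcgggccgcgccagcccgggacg
Hey2: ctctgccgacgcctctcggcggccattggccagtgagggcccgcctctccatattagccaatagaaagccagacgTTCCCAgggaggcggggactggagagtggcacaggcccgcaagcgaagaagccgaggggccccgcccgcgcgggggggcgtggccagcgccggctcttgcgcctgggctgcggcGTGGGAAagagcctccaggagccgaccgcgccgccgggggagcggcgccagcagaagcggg
The longer core GTGGGAA began 124 bases before the start in Hes1, 242 and 99 bases before it in Hes5, and 61 bases before it in Hey2. It was found in 3 of the 9 members with a promoter entry, and in 5.27% of 33469 promoter windows of the same length. The shorter TGGGAA, which lies inside the longer core, was found in the same 3 members and in 22.1% of all windows. Hes1 carried a second TGGGAA a short distance downstream of its core, on the same strand. Windows of Notch1, Notch2, Notch3, Jag1, Nrarp and Hes6 did not hold these letters, and no window was read for Hey1. Of the other motifs searched, CACNAG was in 5 of the 9 windows and 37.2% of all windows, and CACGTG was in that of Nrarp and 5.59% of all windows. A match is a run of letters, and binding was not measured.

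Hes1, a repressor that keeps progenitors undifferentiated in several tissues, stood at 615.9 and 657.1 CPM in FS-like cells (dissected and whole), against 4.22 and 4.09 CPM in the pooled hormone cells. That was 146-fold (95% Poisson interval 128 to 167) and 161-fold (145 to 178) higher, and the fitted log2 fold change was 6.68 (SE 0.12, adjusted p = 5.66e-23). Ratios here and below are of CPM, with no adjustment for hormone RNA. Lactotroph-like cells held 494811 CPM of Prl, and somatotroph-like cells 329999 CPM of Gh1. FS-like cells held the highest Hes1 level of all classes, followed by endothelial-like cells at 496.6 and 458.0 CPM, and these values did not overlap. After each cell was thinned to 3000 UMIs, 63.5% of 2533 FS-like cells had a Hes1 UMI, against 0.898% of 6012 lactotroph-like cells. Before thinning the shares were 73.1% at a median of 6224 UMIs and 4.92% at a median of 16296 UMIs.

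Hey2, a repressor best known from heart and vessel development, stood at 235.7 and 215.0 CPM in FS-like cells, against 0.673 and 0.558 CPM in the hormone cells. The ratios were 350 (252 to 502) and 386 (294 to 516). Its level in FS-like cells was the highest of any class, with Schwann-like cells next at 76.2 and 133.1 CPM. Hes5, a repressor known from neural stem cells, stood at 109.8 and 116.3 CPM in FS-like cells, against 0.168 and 0.179 CPM in the hormone cells, with ratios of 653 (343 to 1430) and 650 (405 to 1120). Thyrotroph-like cells had 0 UMIs of Hey2 and of Hes5 in both preparations, so the fitted log2 fold changes, 9.17 (SE 0.15) for Hey2 and 9.23 (SE 0.21) for Hes5, depend on the prior count and are no bound. Their adjusted p-values were 3.51e-23 and 6.21e-21.

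Nrarp, a small ankyrin-repeat protein that promotes loss of the Notch intracellular domain, stood at 330.5 and 238.6 CPM in FS-like cells, against 0.56 and 0.716 CPM in the hormone cells. The dissected value was the higher one, and the ratios were 590 (412 to 876) and 333 (262 to 430), with a log2 fold change of 8.05 (SE 0.23, adjusted p = 1.46e-19). Hey1, a close relative of Hey2, stood at 72.5 and 74.97 CPM, against 0.878 and 0.673 CPM in the hormone cells. The ratios for Hey1 were 82.6 (61.3 to 114) and 111 (86.5 to 146), and its log2 fold change was 5.57 (SE 0.21, adjusted p = 6.02e-17). FS-like cells were highest of all classes for Hey1 as well, above Schwann-like cells at 62.3 and 57.0 CPM.

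Among the receptors, Notch1 stood at 72.03 and 72.07 CPM in FS-like cells, against 0.243 and 0.253 CPM in hormone cells (log2 fold change 7.30, SE 0.16, adjusted p = 9.03e-22). Notch2 stood at 85.61 and 79.17 CPM, against 2.02 and 2.47 CPM (log2 fold change 4.46, SE 0.14, adjusted p = 5.69e-19). FS-like cells held the highest Notch2 mean of all classes, which overlapped only with that of 28 myeloid cells without C1q, at 97.41 and 32.33 CPM. Notch3 had 114 and 162 UMIs in FS-like cells, or 13.46 and 10.65 CPM. Hormone cells of the dissected preparation had 0 Notch3 UMIs, so the level in FS-like cells was at least 240-fold higher there, at a floor of 3 UMIs over the group, and with counting error the 95% interval of that ratio began at 192. In the whole glands 7 UMIs gave a ratio of 145 (68.6 to 365). Jag1, a membrane-bound ligand of Notch receptors, stood at 51.01 and 42.02 CPM in FS-like cells, against 0.299 and 0.579 CPM in hormone cells (log2 fold change 5.91, SE 0.18, adjusted p = 3.16e-19).

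Most FS-like cells held target RNA, and part of them held receptor or ligand RNA as well. Of 2533 cells thinned to 3000 UMIs, 88.9% had a UMI of at least 1 of the 5 targets Hes1, Hes5, Hey1, Hey2 and Nrarp, and 26.2% had UMIs of at least 3 of them. A UMI of any receptor was found in 35.7% of these cells, a Jag1 UMI in 12.9%, a receptor together with a target in 31.98%, and a receptor together with Jag1 in 5.17%. Jag1 was seen in 14.5% of cells with a receptor UMI (exact 95% binomial interval 12.26 to 16.96%) and in 11.97% of those without one (10.4 to 13.7%), and these intervals overlapped. Nrarp was seen in 46.6% of cells with a Hes1 UMI (44.2 to 49.1%) and in 36.7% of those with none (33.5 to 39.9%). For Hes5 the shares were 13.6% and 12.4%, with overlapping intervals. These shares cover counting error only, and absence of a UMI at this depth does not show absence of the RNA.

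Hes6 ran the other way. FS-like cells held 43.57 and 55.9 CPM, against 74.53 and 86.96 CPM in the pooled hormone cells, and the fitted log2 fold change, which weights the 5 hormone classes equally, was -1.46 (SE 0.11, adjusted p = 4.39e-11). The gap was not of like size for each hormone class. Somatotroph-like cells held 52.9 and 57.2 CPM, and their range overlapped with that of FS-like cells. The range of lactotroph-like cells, given below, did so too. Within each preparation FS-like cells were below both classes. Gonadotroph- and corticotroph-like cells stood far higher, as described below. Hes6 RNA was found in each of the 11 tested classes, at 29.3 CPM or more. At the Hes6 to Prl ratio of hormone cells, the Prl in FS-like cells would carry 8.38 CPM of Hes6, and that in gonadotroph-like cells 16.2 CPM.

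Hes6 also separated the hormone classes from each other. Gonadotroph-like cells, which make luteinizing and follicle-stimulating hormone, held 311.6 and 360.6 CPM of Hes6, and corticotroph-like cells held 234.3 and 253.5 CPM. Thyrotroph-like cells had 56.6 and 94.5 CPM, lactotroph-like cells 54.06 and 61 CPM, and somatotroph-like cells 52.9 and 57.2 CPM. The first 2 classes stood above the other 3 in both preparations with no overlap, and the other 3 overlapped with each other. After thinning to 3000 UMIs, 63.4% of 640 gonadotroph-like cells had a Hes6 UMI, against 14.9% of lactotroph-like cells. Before thinning these shares were 93.3% and 54.1%, at medians of 12372 and 16296 UMIs per cell. A test over the 5 classes gave an adjusted p of 1.9e-13 for Hes6, with 2.30 log2 units between the highest and the lowest class.

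In all, 6 of the 10 genes differed among hormone classes, where 46.9% of all genes tested did. Beside Hes6 these were Hey1, Hey2, Notch2, Jag1 and Hes1, all at low levels. Hey1 was highest in corticotroph-like cells, at 10.5 and 4.62 CPM, and near 0 in lactotroph-like cells, at 0.117 and 0.247 CPM. Notch2 stood at 7.28 and 6.83 CPM in corticotroph-like cells and at 1.023 and 1.077 CPM in lactotroph-like cells. Hes1 was highest in gonadotroph-like cells, at 14.7 and 10.2 CPM, and the highest Jag1 mean was that of corticotroph-like cells, at 1.62 and 3.51 CPM. The S100b found in corticotroph-like cells, taken at the ratios of FS-like cells, would carry 0.301 CPM of Hey1, 0.335 CPM of Notch2 and 0.186 CPM of Jag1. It would also carry 0.911 CPM of Hey2, against 0.427 CPM measured over all libraries. For Hey2 such an amount and the measured level were 0.3613 and 0.2825 CPM in lactotroph-like and 1.061 and 0 CPM in thyrotroph-like cells. They were 0.418 and 1.27 CPM in somatotroph-like and 0.652 and 1.744 CPM in gonadotroph-like cells. For Hes1 in thyrotroph-like cells they were 3.172 and 4.348 CPM. The part of free RNA in these calls was not tested. Calls for Hey2, Hey1 and Hes1 were lost without the anterior library, which left 1 sum, that of the whole glands, for each hormone class. Without whole-gland lane 1, Hey2 was also lost (adjusted p = 0.0759), and at a limit of 10% mitochondrial UMIs Hes1 was (adjusted p = 0.212).

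**Figure D2:**
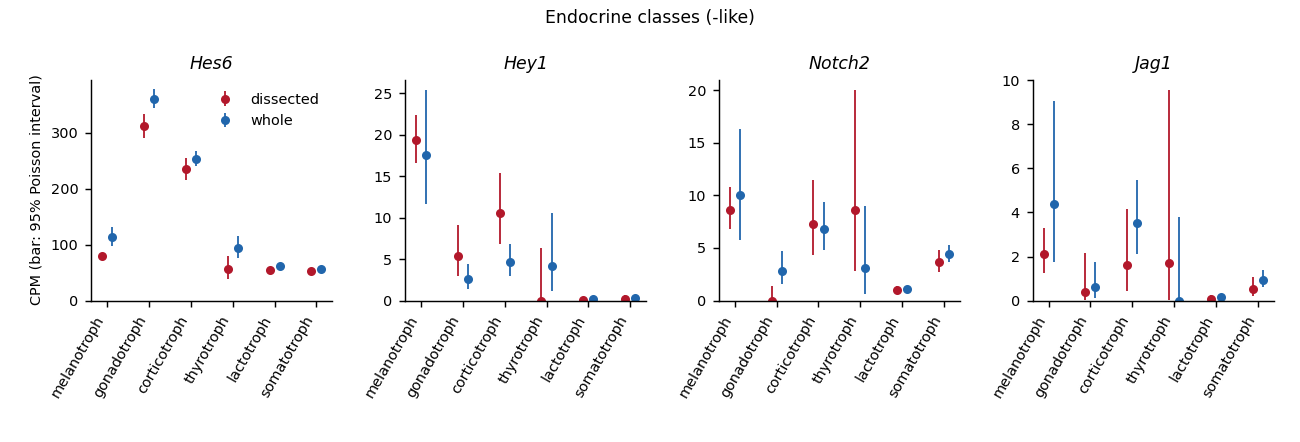
CPM of Hes6, Hey1, Notch2 and Jag1 in the 6 endocrine classes, with red points for the dissected and blue points for the whole-gland preparation, and bars for exact 95% Poisson intervals. Gonadotroph- and corticotroph-like cells stand apart for Hes6, and melanotroph-like cells for Hey1 at 19.3 and 17.6 CPM.

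Melanotroph-like cells, which belong to the intermediate lobe and make Pomc, held more Hey1, Notch2 and Jag1 than hormone cells. In this comparison 4 of the 10 genes were called higher, against 9.81% of all genes tested. Hey1 stood at 19.3 and 17.6 CPM in melanotroph-like cells, above every hormone class in both preparations (log2 fold change 4.02, SE 0.35, adjusted p = 2.41e-09). Notch2 stood at 8.655 and 10.03 CPM (log2 fold change 1.74, SE 0.28, adjusted p = 2.42e-05) and Jag1 at 2.11 and 4.39 CPM (2.20, SE 0.48, adjusted p = 0.000917). The Jag1 values overlapped with those of corticotroph-like cells, and the Notch2 values lay above those of every hormone class, the nearest being 8.577 CPM in dissected thyrotroph-like cells. Hes6 stood at 79.0 and 114.1 CPM in melanotroph-like cells, and did not pass the test (log2 fold change -0.09, SE 0.12).

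The fourth call, Hes5, rested on the posterior library. It had 30 UMIs in melanotroph-like cells of that library, or 3.33 CPM, all of them in 3 of the 531 cells, and 0 UMIs in the whole glands, where 3 UMIs would be 1.88 CPM. Without the posterior library, which left 1 melanotroph-like sum, the fitted value turned to -3.28. Melanotroph-like cells also carried 56.7 CPM of S100b, and at the ratios of FS-like cells this much S100b would bring 6.95 CPM of Hes5, 5.08 CPM of Notch2, 2.82 CPM of Jag1 and 4.57 CPM of Hey1, against 2.83, 8.86, 2.45 and 19.04 CPM measured over all libraries. The part of free RNA in these calls was not tested. By edgeR's test 0 of the 10 genes were called lower here, 0 had an unadjusted p under 0.05 in that direction, and DESeq2 also called 0.

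Pituicyte-like cells, named for the glia around the nerve endings of the posterior lobe, held RNA of Notch1, Notch2 and Jag1 as FS-like cells did, but little of Notch3 and of most targets. Of the 10 genes, 6 were higher in FS-like than in pituicyte-like cells and 0 were lower, where 17.2% of all genes tested were called higher, 12.6% lower and 29.8% in either direction. The 6 were Hes5, Hey2, Nrarp, Notch3, Hey1 and Hes1. The members' median log2 fold change was 2.94, against 0.03 for all genes. With an unadjusted p under 0.05, 1 member (Hes6) was lower, and DESeq2 called 0 lower.

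Hey2 stood at 235.7 and 215.0 CPM in FS-like cells, against 2.24 and 1.13 CPM in pituicyte-like cells (log2 fold change 6.77, SE 0.22, adjusted p = 1.42e-16). Hes5 had 930 and 1769 UMIs in FS-like cells, against 9 and 0 UMIs in pituicyte-like cells (log2 fold change 6.90, SE 0.32, adjusted p = 2.43e-14). Nrarp stood at 330.5 and 238.6 CPM, against 6.49 CPM in dissected and 0 UMIs in whole-gland pituicyte-like cells (5.75, SE 0.35, adjusted p = 1.67e-12). The FS-like and pituicyte-like values did not overlap for any of these 3 targets. Hey1 had a log2 fold change of 3.73 (SE 0.32, adjusted p = 6.57e-10). Hes1 was the target that pituicyte-like cells did hold, at 615.9 and 657.1 CPM in FS-like cells, against 144.7 and 171.9 CPM in pituicyte-like cells (2.14, SE 0.17, adjusted p = 1.97e-10). After thinning to 3000 UMIs, 0.125% of 801 pituicyte-like cells had a Hes5 UMI, 0.624% a Hey2 UMI and 33.8% a Hes1 UMI. Thinning left out 404 of the 1205 pituicyte-like cells, which had fewer UMIs than this. The median depth of all 1205 was 6746 UMIs.

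Of the receptors, Notch1 and Notch2 lay close together in the 2 glia-like classes, and Notch3 did not. Notch1 stood at 72.03 and 72.07 CPM in FS-like cells, against 72.74 and 61.07 CPM in pituicyte-like cells, a log2 difference of 0.14 with a 95% interval from -0.15 to 0.42 that excludes a 2-fold change. Notch2 stood at 85.61 and 79.17 CPM, against 55.28 and 58.81 CPM (0.62, interval 0.28 to 0.97), and Jag1 at 51.01 and 42.02 CPM, against 26.86 and 29.4 CPM (0.81, interval 0.44 to 1.17). Both passed the adjusted p, at 0.0017 and 0.000218, but not the size rule. Hes6 stood at 43.57 and 55.9 CPM, against 89.3 and 89.34 CPM (-0.84, interval -1.16 to -0.52, adjusted p = 3.25e-05), which also fell short of the size rule. Notch3 was called higher (4.08, SE 0.57, adjusted p = 2.73e-06) on 7 and 0 UMIs in pituicyte-like cells. It lost the call at a limit of 10% mitochondrial UMIs, which left 1 pituicyte-like sum, and the value there was 3.34. Pituicyte-like clusters had median mitochondrial shares of 14.46 and 14.76%, against 11.07 and 11.14% in the FS-like clusters.

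**Figure D3:**
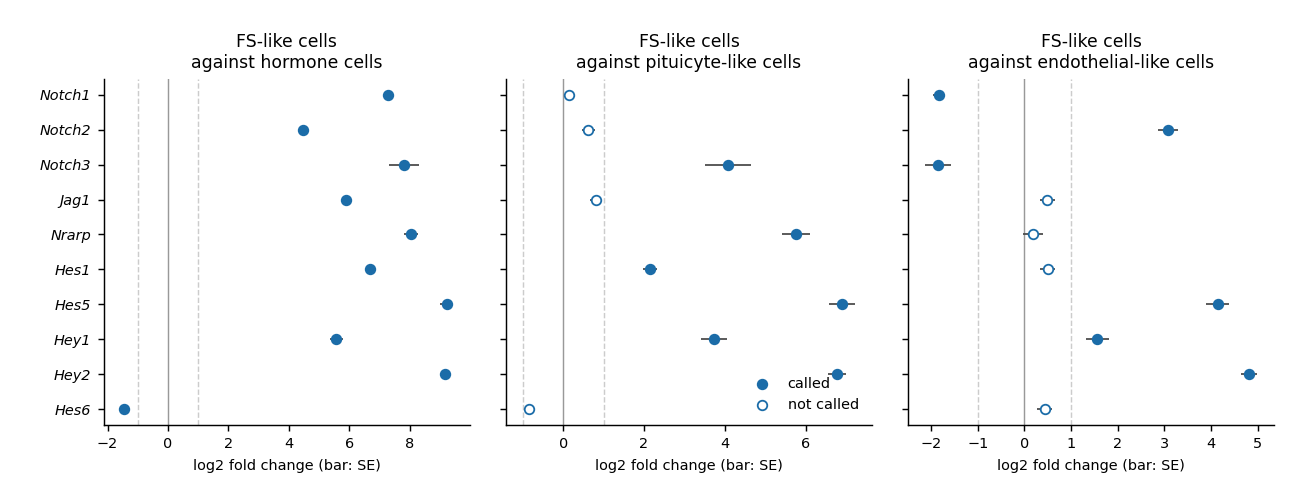
Log2 fold changes of the 10 genes in FS-like cells against hormone cells, pituicyte-like cells and endothelial-like cells, with bars for the SE, filled points for called genes and dashed lines at a 2-fold change. The left panel has 9 points to the right and Hes6 to the left, the middle panel has 6 called points, Notch3 among them, with Notch1 and Notch2 nearer to 0, and the right panel has called points on both sides.

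Endothelial-like cells were the class nearest to FS-like cells in Nrarp and Hes1, and exceeded them in Notch1 and Notch3. Of the 10 genes, 4 were higher in FS-like cells (Hey2, Hes5, Notch2 and Hey1) and 2 were lower, where 18.2% of all genes were higher and 19% lower. Notch1 stood at 72.03 and 72.07 CPM in FS-like cells, against 286.2 and 263.8 CPM in endothelial-like cells (log2 fold change -1.84, SE 0.11, adjusted p = 8.31e-13). Notch3 stood at 13.46 and 10.65 CPM, against 54.57 and 36.4 CPM (-1.85, SE 0.28, adjusted p = 7.87e-06). Endothelial-like cells also carried 1187 CPM of the mural marker Rgs5 and 75.7 CPM of Pdgfrb, and the sub-clusters below give Notch3 by cell group.

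Hey2 had a log2 fold change of 4.81 in FS-like cells (SE 0.18, adjusted p = 5.15e-16), with 6.144 and 10.96 CPM in endothelial-like cells. Hes5 was higher by 4.14 (SE 0.24, adjusted p = 7.72e-13), with 3.98 and 9.79 CPM in endothelial-like cells. Notch2 was higher by 3.08 (SE 0.22, adjusted p = 1.73e-11), with 13.01 and 7.437 CPM in endothelial-like cells. Hey1 was higher by 1.56 (SE 0.25, adjusted p = 1.09e-05), but its endothelial-like values differed between the preparations, at 41.2 and 12.1 CPM. Its call was lost without the anterior library, which left 1 FS-like sum, and the value there was 1.45. Hes1 differed by 0.50 (interval 0.15 to 0.86), Jag1 by 0.49 (0.13 to 0.85) and Hes6 by 0.43 (0.05 to 0.81), all under the size rule. Nrarp stood at 330.5 and 238.6 CPM in FS-like cells, against 355.3 and 178.9 CPM in endothelial-like cells, and its difference of 0.19 (interval -0.27 to 0.65) did not pass.

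Against hormone cells, endothelial-like cells and fibroblast-like cells each had 9 of the 10 genes higher and Hes6 lower, where 28.8% of all genes were higher and 18.7% lower for the endothelial-like class, and 21.7% and 11.9% for the fibroblast-like class. The Hes5 calls rested on few cells, since 4 of 574 endothelial-like and 9 of 323 fibroblast-like cells had a Hes5 UMI. Hey2 UMIs were found in 21 and 24 of these cells. The S100b of fibroblast-like cells, at the ratios of FS-like cells, would bring 21.67 CPM of Hey2 and 10.9 CPM of Hes5. Measured over all libraries were 22.71 and 16.15 CPM. In endothelial-like cells such amounts were 6.005 and 3.022 CPM, against 8.456 and 6.765 CPM measured. The other members called higher stood at a larger multiple of such an amount in both classes. The part of free RNA in these calls was not tested. Notch1 was higher in endothelial-like cells by 9.14 (log2 scale, SE 0.15, adjusted p = 2.72e-24). Fibroblast-like cells held 107.5 and 190.4 CPM of Notch3, the highest of the classes, and 68.0 and 90.1 CPM of Jag1. That class also carried 2291.5 CPM of Rgs5 and 338 CPM of Pdgfrb beside 2412 CPM of Col1a1, the collagen gene that marks fibroblasts.

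Among sub-clusters of these 2 classes, Notch3 was highest in 1 group of cells. A mural-like sub-cluster of 94 cells, with Vtn, Rgs5, Higd1b, Pdgfrb, Kcnj8 and Abcc9 among its 10 leading genes, held 571 CPM of Notch3 (585.2 and 558.0 CPM by preparation), 219.5 CPM of Jag1 and 209 CPM of Notch1. Endothelial sub-clusters with low Rgs5 (62.7 and 121 CPM) held 0 and 0.546 CPM of Notch3, and the endothelial sub-cluster led by Aqp1 held 5.17 CPM, with 1239 CPM of Rgs5. The 2 fibroblast sub-clusters held 3.75 and 42.6 CPM, the second with 0 CPM in the dissected and 78.94 CPM in the whole preparation. Hes5 was at 77.3 CPM in the sub-cluster that mixed mural and fibroblast genes with RNA of other cells, and at 0 to 1.292 CPM in the other 8, and Hey2 was at 0 CPM in both fibroblast sub-clusters. Notch1 was found throughout the endothelium, at 353 CPM in the Aqp1 sub-cluster and at 179 and 290 CPM in the other 2, and Nrarp followed at 532 CPM, 87.6 CPM and 250 CPM. Hey1 stood at 55.55 CPM in the Aqp1 sub-cluster, against 2.614 and 9.827 CPM in the other 2. Of the 177 cells in the Aqp1 sub-cluster 149 came from the posterior library and 0 from the anterior one. It had 28 cells in the whole preparation, where the other 2 had 98 and 78, against 46 and 52 in the dissected one. The mix of endothelial-like cells thus differed between the preparations, and its part in their Hey1 and Nrarp values was not tested. No test was made, since the sub-clusters were made from these cells and the mural-like one had 46 cells in the dissected and 48 in the whole preparation. The other 3 sub-clusters mixed vessel genes with RNA of red blood cells, macrophages or mural cells, and held 68.9, 144 and 225 CPM of Notch3 beside 1230, 2770 and 4850 CPM of Rgs5.

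**Figure D4:**
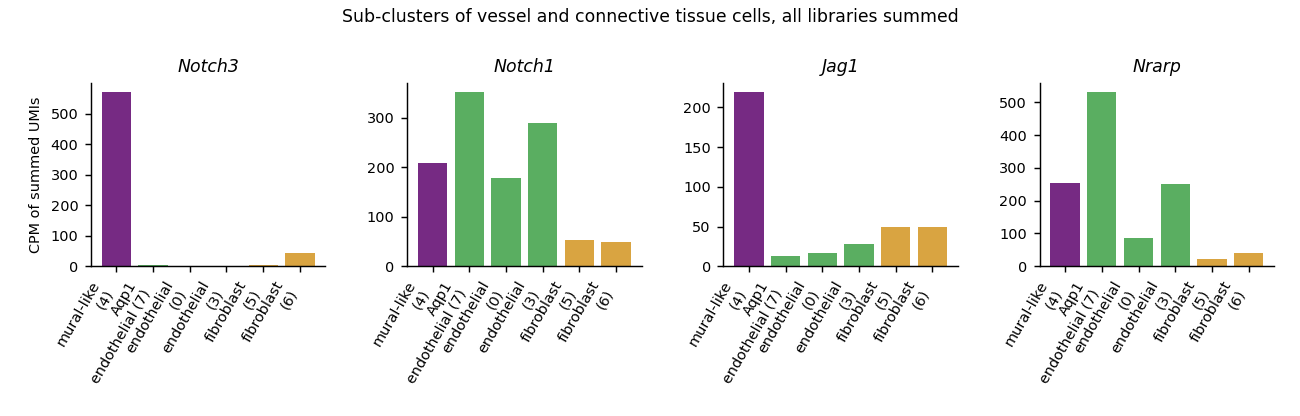
CPM of Notch3, Notch1, Jag1 and Nrarp in 6 sub-clusters of the endothelial- and fibroblast-like classes, all libraries summed. The mural-like bar (purple) is the highest for Notch3 (571 CPM) and Jag1, and the Aqp1 bar (left green) for Notch1 (353 CPM) and Nrarp.

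Smaller classes were described without a test. Schwann-like cells, 83 in number and found mostly in the posterior library, held the highest Jag1 of all classes at 124.6 and 95.1 CPM, with 152.3 and 142.6 CPM of Notch1. Their Hes5 level was 332.3 CPM in the dissected and 47.5 CPM in the whole preparation, the second value from 5 UMIs. T and NK-like cells had 105.3 and 68.2 CPM of Notch1, and macrophage-like cells 33.2 and 23.2 CPM. Both lymphoid and macrophage-like cells had 0 to 1 UMI of Notch3 in each preparation.

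Within FS-like cells, those with at least 5 UMIs of Krt17, Cldn3 and Cldn4 (a keratin and 2 claudins) were set against those with fewer. There were 335 keratin/claudin cells, of which 99 came from the anterior library, 68 from the posterior library and 168 from the whole glands, against 2528 other FS-like cells. In 1 of the 2 FS-like clusters lay 284 of the 335 and 339 of the 2528. That cluster had UMIs of all 9 listed folliculostellate markers, but 0 of them were among its 10 leading genes, of which Krt17 was the first. Keratin/claudin cells were deeper, with a median of 20812 UMIs per cell against 5905, so that levels are given as CPM of the summed cells. They also held less of the class marker S100b, at 434.3 and 354.9 CPM (anterior and whole) in keratin/claudin cells, against 1235 and 1131 CPM in the others, and more Prl, at 45626 and 48682 CPM, against 35119 and 24394 CPM. The part of these differences in the results below was not tested. The test used the anterior library and the whole glands, in a fit of 14822 genes. Of the 10 genes, Hes5 was called lower in keratin/claudin cells and 0 were called higher, where 3.68% of all genes were called lower, 4.8% higher and 8.47% in either direction. The members' median log2 fold change was 0.12, against 0 for all genes. With an unadjusted p under 0.05, 4 members were higher, and DESeq2 called 0 higher.

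Hes5 stood at 51.81 and 44.6 CPM in keratin/claudin cells (anterior and whole), against 139.6 and 149.6 CPM in the other FS-like cells, a log2 fold change of -1.74 (SE 0.16, adjusted p = 1.47e-08). The difference was present in each of the 4 libraries. In the posterior library, which the test did not use, Hes5 stood at 62.52 CPM in keratin/claudin cells, against 110.2 CPM in the others. In whole-gland lane 1 the values were 42.58 against 144.9 CPM, and in lane 2 they were 46.98 against 155.5 CPM. Cells with no UMI of the 3 genes had 159.7 CPM of Hes5 over all libraries, cells with 1 to 4 had 89.25 CPM, cells with 5 to 9 had 112 CPM and cells with 10 or more had 38.9 CPM. Just inside the limit 18 cells with 5 UMIs had 34.6 CPM, and just outside it 42 cells with 4 UMIs had 94.1 CPM.

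The size of this difference varied with the cells compared and their depth, which were not told apart. With every FS-like cell thinned to 3000 UMIs the log2 fold change of Hes5 was -1.20 (adjusted p = 0.00228), with the cells split by their share of keratin and claudin UMIs it was -1.05 (adjusted p = 6.3e-05), and among FS-like cells of at least 10000 UMIs, a limit chosen after seeing the data, it was -1.11 (adjusted p = 0.00966). At a limit of 10 UMIs it was -2.38. The call was lost without the anterior library, which left 1 sum for each group, and the value there was -1.87. Cells with over 10% of UMIs from hormone genes numbered 33 of 335 keratin/claudin and 115 of 2528 other cells, and the value without them was -1.70. The share of thinned cells with a Hes5 UMI was 9.73% of 329 keratin/claudin cells (exact 95% interval 6.75 to 13.5%) and 13.7% of 2204 others (12.3 to 15.2%). These intervals overlapped and cover counting error only, and the difference between the shares was not tested.

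The other members had fitted differences of less than 2-fold between the 2 groups of FS-like cells, though the interval of Nrarp included a 2-fold change. In the posterior library, which the test did not use, Nrarp stood at 141.0 CPM in keratin/claudin cells, against 288.0 CPM in the others. Hey2 stood at 338.0 and 278.0 CPM in keratin/claudin cells, against 183.1 and 185.8 CPM in the others (log2 fold change 0.60, interval 0.35 to 0.84, adjusted p = 0.00037). Notch1 stood at 94.24 and 98.74 CPM, against 60.61 and 59.69 CPM (0.55, interval 0.28 to 0.82, adjusted p = 0.00146), and Notch2 at 113.0 and 106.4 CPM, against 71.51 and 66.53 CPM (0.54, interval 0.23 to 0.84, adjusted p = 0.00564). Nrarp went the way of Hes5, at 266.4 and 171.3 CPM in keratin/claudin cells, against 363.5 and 269.8 CPM (-0.68, interval -1.14 to -0.23, adjusted p = 0.0162). These 4 passed the adjusted p but not the size rule, and with DESeq2 the adjusted p of Hey2 was 0.136 and that of Notch1 0.0779. In thinned cells the values of Notch1, Notch2 and Hey2 were 0.12, 0.24 and 0.26 on the log2 scale, with adjusted p = 0.846, 0.699 and 0.405. Hes1 stood at 762.6 and 819.8 CPM, against 540.5 and 581.6 CPM, and did not pass (0.36, adjusted p = 0.0975). Notch3, Jag1, Hey1 and Hes6 had intervals that included 0.

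**Figure D5:**
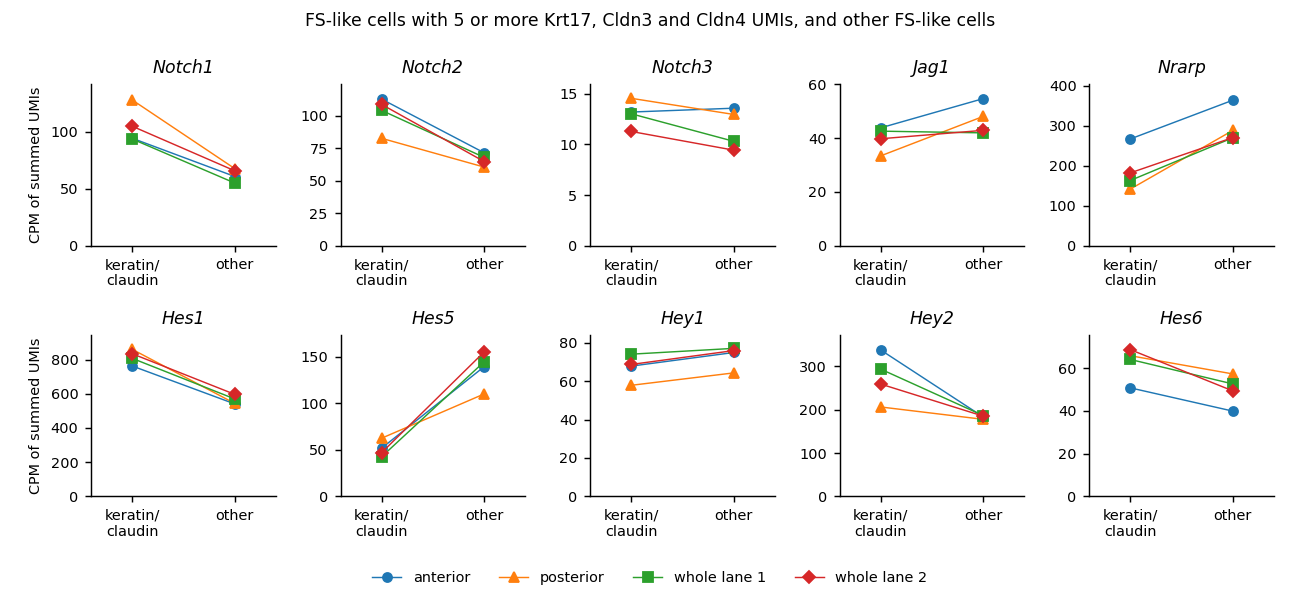
CPM of each of the 10 genes in keratin/claudin FS-like cells (left in each panel) and in the other FS-like cells (right), with 1 line for each of the 4 libraries. All 4 lines of Hes5 and Nrarp run upwards to the other FS-like cells, and all 4 lines of Notch1, Notch2, Hes1, Hey2 and Hes6 run downwards.

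The wider Notch pathway was described from a list of 71 genes by role, of which 68 were found and 63 passed the low-count filter. In FS-like against hormone cells 23 of the 63 were higher and 10 lower, beside 22.9% and 11.6% of all genes. The list's median log2 fold change was 0.47. By role, 0 of 8 genes of receptor cleavage were called in either direction, 5 of 11 genes of the nuclear complex were higher, and 13 of 19 other targets and partner factors were higher. The highest in level among those called higher were Id4, at a mean of 468.5 CPM against 11.9 CPM (5.90, SE 0.15, adjusted p = 1.92e-20), Id3 (6.29, SE 0.19, adjusted p = 3.5e-19), both inhibitors of differentiation factors, and the cyclin gene Ccnd1 (4.11, SE 0.07, adjusted p = 3.63e-23). Among those called lower, Dlk1, a secreted or membrane-bound non-canonical ligand, stood at a mean of 96.1 CPM in FS-like cells, against 880.9 CPM over the hormone classes (-2.40, SE 0.34, adjusted p = 1.09e-06). Neurod4, a neurogenic factor, and Dner, another non-canonical ligand, were lower too, with log2 fold changes of -2.69 and -2.39. These fits average the log levels of the 5 hormone classes, and for each of the 3 genes 1 class did not follow. Dlk1 stood at 80.88 and 111.3 CPM in FS-like cells, against 80.9 and 82.28 CPM in gonadotroph-like cells. Neurod4 stood at 9.446 and 8.812 CPM, against 8.497 and 9.416 CPM in corticotroph-like cells, and Dner at 5.432 and 6.181 CPM, against 1.52 and 1.341 CPM in lactotroph-like cells. Lfng, a glycosyltransferase that modifies Notch receptors, was higher by 6 (SE 0.24, adjusted p = 1.5e-16), and is named after its values were seen.

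Against pituicyte-like cells 25 of the 63 were higher and 7 lower in FS-like cells, beside 17.2% and 12.6% of all genes. Id3 stood at a mean of 268.7 CPM in FS-like cells, against 4.89 CPM (5.81, SE 0.35, adjusted p = 1.49e-12), while Id4 was lower, at 468.5 CPM against 1084 CPM (-1.10, SE 0.21, adjusted p = 0.000102). Bhlhe40 and Ccnd1 were higher by 3.54 and 3.45. The cleavage genes Adam10 and Aph1a were lower, with log2 fold changes of -1.21 and -1.12, and 4 of 8 cleavage genes were lower in all. Without the anterior library, which left 1 FS-like sum, Id4, Adam10 and Aph1a lost their calls. Fewer of the 63 genes were lower there than the 7 with all libraries. Fewer were lower as well without the posterior library and at 10% mitochondrial UMIs, which each left 1 pituicyte-like sum. Against endothelial-like cells 15 were higher and 21 lower, beside 18.2% and 19% of all genes. Sox9 stood at a mean of 222.8 CPM in FS-like cells, against 7.11 CPM (5.04, SE 0.20, adjusted p = 5.27e-16), and Heyl at 119.0 CPM, against 22.4 CPM. The ligand Dll4, known from arterial endothelium and named after its values were seen, was at 1.18 and 0.921 CPM in FS-like cells, against 184.7 and 133.9 CPM in endothelial-like cells (-7.13, SE 0.22, adjusted p = 2.67e-17).

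In melanotroph-like against hormone cells 11 of the 63 were higher and 5 lower, beside 9.81% and 5.45% of all genes. Mfng, a glycosyltransferase that modifies Notch receptors, stood at a mean of 36.55 CPM in melanotroph-like cells, against 28.94 CPM over the hormone classes (log2 fold change 1.60, SE 0.15, adjusted p = 1.26e-08), but corticotroph-like cells held more, at 107.6 and 81.98 CPM. Dlk1 was lower in melanotroph-like cells too (-2.55, SE 0.36, adjusted p = 4.8e-06). Without the posterior library, which left 1 melanotroph-like sum, fewer than these 5 genes were lower. In endothelial-like and fibroblast-like cells 34 and 24 of the 63 were higher and 9 and 8 lower than in hormone cells, beside 28.8% and 21.7% of all genes higher and 18.7% and 11.9% lower. Among hormone classes 35 of the 63 differed, beside 46.9% of all genes. Between keratin/claudin and other FS-like cells 9 were higher and 1 lower, beside 4.8% and 3.68%. Ccnd1 stood at a mean of 412.6 CPM in keratin/claudin cells, against 183.6 CPM (1.03, SE 0.09, adjusted p = 1.02e-08), and Myc at 106.9 CPM, against 47.4 CPM (1.02, SE 0.12, adjusted p = 1.02e-06). The matrix protein Mfap2, listed among ligands, was lower (-1.36, SE 0.22, adjusted p = 6.53e-05). These counts were lower under other settings, and the cause was not tested: 0 of the 63 were higher in thinned cells, 3 with the split by share and 5 among cells of at least 10000 UMIs. They were also lower without the anterior library, which left 1 sum for each group. In thinned cells Ccnd1 still differed by 0.98 (adjusted p = 1.27e-05), just under the size rule, and Myc by 0.47 (adjusted p = 0.31). Without the anterior library Ccnd1, Myc and Mfap2 lost their calls.

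The genes whose pattern over the 22 class sums was most like each member are given as a description, by Pearson's r of log2(CPM + 1) among 12531 genes, where the sums share libraries and classes. Hes5 was most like Aldh3a1 (0.969), Hey2 (0.965) and Grifin (0.959), and Hey2 most like Aldh3a1 (0.968), Fmo1 (0.967) and Grifin (0.966). Hes1 was nearest to Rassf9, Nfia and Ston1 (0.973 to 0.974), and Nrarp to Tfpi2, Igfbp3 and Stom (0.950 to 0.968). Notch1 was nearest to Mdfi, Kif1c and Vcam1 (0.968 to 0.977), and among the nearest to Notch3 were Ltbp4 (0.981) and Cxcl12 (0.979), and to Notch2 Ckb (0.923) and S100b (0.919). Jag1 was nearest to Ifitm3, Fam129b and Limd1 (0.956 to 0.960), and Hey1 to Cnn3, Rhoc and Crip2 (0.861 to 0.904). Hes6 stood closest to Mrps11 (0.899), Neurod1 (0.895) and Nudt16l1 (0.890), and its r with each of the other 9 members was negative, from -0.60 with Nrarp to -0.11 with Hey1.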

How the data were processed

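Droplet 3′ libraries (4) of dispersed rat pituitary were analysed. Cell Ranger 3.1 is named in the submitters' processing notes; the genome build, the annotation and whether reads were equalized between libraries are not given in the sources used here. The deposited matrix holds raw UMI counts (genes by barcodes), and a deposited barcode list of other type, with library suffixes, gives the library of each cell. No further column of sample values was left unused (0).

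Of 32455 barcodes, 20381 passed limits of 1000 UMIs and 500 genes at least and a mitochondrial share of 20% at most, and 604 with a Scrublet score over 0.25 were removed. Cells were clustered with scanpy 1.11.5 (2000 variable genes, 30 components, Leiden resolution 1), without the Notch genes, the wider Notch list, Krt17, Cldn3 and Cldn4, and classes were named from marker lists. Counts were summed per class and preparation. In the dissected preparation FS-like and hormone classes were taken from the anterior library, pituicyte- and melanotroph-like classes from the posterior library, and other classes from both. The 22 sums of 11 classes were tested in edgeR 4.0.16 (quasi-likelihood, TMM, terms for class and preparation, filterByExpr), with Benjamini-Hochberg adjustment over all genes tested. The term for preparation is the pairing, and lanes are technical repeats. Classes of the whole preparation come from 1 suspension, and those of the dissected preparation from the anterior and posterior libraries of the same glands. In the dissected preparation, FS-like against pituicyte-like and melanotroph-like against hormone cells are comparisons between these libraries. Class, lobe and library cannot be told apart there. Of the dissected endothelial-like cells 241 of 320 came from the posterior library, and of the fibroblast-like cells 158 of 200. Comparisons of these 2 classes with FS-like or hormone cells therefore also differ in part by lobe and library. With 2 preparations, p-values measure the spread between these sums. SEs were taken from the test statistic, intervals of log2 fold changes from the SE and 10 degrees of freedom, and intervals on CPM, ratios and shares are exact 95% intervals that cover counting error only. Alternatives used DESeq2 1.42.0, other normalization, filters, cell limits and libraries left out. The tests were tested on simulated data.

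All 10 members are named in every comparison. Of the wider list the 3 called genes with the highest CPM per direction were eligible, and for each member the 3 genes with the highest Pearson's r. Some genes that this rule names are not reported here. Members, lists and the split were chosen with earlier results of these data known. Promoter sequences are from RefSeq (GRCr8), in which 9 of the 10 members matched.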

Additional observations from a re-analysis of the deposited data

Results flagged for a closer look

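In 5 comparisons of single genes the log2 difference had opposite signs in the 2 preparations, and in none was the difference between preparations tested. Notch1 differed between FS-like and pituicyte-like cells by -0.01 in the dissected and by 0.24 in the whole preparation. Nrarp differed between FS-like and endothelial-like cells by -0.1 in the dissected and by 0.41 in the whole preparation. Between melanotroph-like and hormone cells, Notch3 differed by 0.29 (dissected) and -0.09 (whole), and Hes5 by 1.83 and -0.3. Notch3 differed between keratin/claudin and other FS-like cells by -0.04 in the dissected and by 0.28 in the whole preparation. These differences are on the log2(CPM + 1) scale.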

How the results depend on the processing

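Over 17 alternatives, 995 of 1010 single-gene values of the members kept their direction and their side of the threshold, 8 lost a call, 1 gained one and 6 reversed. The reversed values were Nrarp in FS-like against endothelial-like cells without the anterior library (-0.25), Hey2, Hes5, Notch3 and Hes6 in melanotroph-like against hormone cells without the posterior library (-4.24, -3.28, -1.43 and 0.08), and Hes6 in the keratin/claudin split among cells of at least 10000 UMIs (-0.01). Leaving out 1 library in turn, these values ranged from -0.25 to 0.69 for Nrarp, from -4.24 to 1.83 for Hey2, from -3.28 to 5.28 for Hes5, from -1.43 to 3.02 for Notch3 and from -0.21 to 0.08 for Hes6. Of the named genes of the wider list, 750 of 803 values were unaffected, 38 lost a call, 8 gained one and 7 reversed. These were Jag2 in FS-like against hormone cells without hormone-rich cells (-0.07), and Dll4 in FS-like against pituicyte-like cells (-0.11 to 3.27 leaving out 1 library, called with all), in fibroblast-like against hormone cells (-2.16 to 2.81, and -1.92 at 10% mitochondrial UMIs) and in the split (-0.39 to 0.97, -0.04 with DESeq2 and -0.49 at 10000 UMIs). The cause was not tested. Leaving out 1 library gave 2692 to 4397 genes called for FS-like against pituicyte-like cells (4352 with all), 1243 to 2272 for melanotroph-like against hormone cells (2230), 3486 to 7008 among hormone classes (6859), with 3 to 6 members, and 87 to 1364 in the keratin/claudin split (1256), with 0 to 1 members lower; the lowest of each came without the anterior library. At most 10% mitochondrial UMIs gave 2410 genes for FS-like against pituicyte-like cells and 732 for the split. The split gave 334 genes in thinned cells, 675 by share and 509 among cells of at least 10000 UMIs, a limit added after seeing the data. With no replicate block, that is without the pairing by preparation, the counts were 5033 for FS-like against hormone cells (5037 with it), 4332 against pituicyte-like (4352), 5433 against endothelial-like (5444), 2223 for melanotroph-like (2230), 6952 for endothelial-like (6936) and 4961 for fibroblast-like (4908) against hormone cells, 6783 among hormone classes (6859) and 1161 for the split (1256). With RLE scaling the median of all genes moved from -0.02 to 0.12 for fibroblast-like against hormone cells. Depth limits the small sums: 3 UMIs were 29.14 CPM in myeloid cells without C1q, 7.866 CPM in T and NK-like, 7.613 CPM in Schwann-like and 1.63 CPM in thyrotroph-like cells.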
